A study of Mus musculus with 15 samples.

Results

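The 9 genes described here are regulators of the birth, fate and maturation of parvalbumin interneurons: Lhx6, Sox6, Satb1, Mef2c, Dlx1, Dlx5, Dlx6, Nkx2-1 and Ppargc1a. They were chosen by name, for their known roles, from the 46380 gene symbols shared by all 15 deposited count tables. Earlier results of these data were known when they were chosen. The mice were adults in which Pv-Cre, a Cre recombinase driven in parvalbumin neurons, switches on a nuclear fluorescent reporter (genotype PvCre ROSA-tomato-lox). Fluorescent cortical nuclei were isolated on a cell sorter and their nuclear RNA was sequenced. PTU_TH mice (n = 4) were Thra+/+, had 2 weeks of the antithyroid drug PTU in food, and were injected intraperitoneally with thyroid hormones 24 h before dissection. PTU mice (n = 3) were Thra+/+ and had 2 weeks of PTU alone. Mut mice (n = 4) were untreated and carried ThraAMI/+, a floxed allele that gives a dominant negative form of the thyroid hormone receptor TRalpha1. Ctrl mice (n = 4) were untreated Thra+/+ animals, littermates of the Mut mice. All 4 groups carried the same Cre and reporter, each library came from the cortex of 1 mouse, and the labels used here give neither the sex of the mice nor the dose of hormone.

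Parvalbumin interneurons are fast-spiking GABAergic neurons that arise in the medial ganglionic eminence of the embryonic forebrain. Nkx2-1 sets the identity of its progenitors and switches on Lhx6, a LIM homeodomain factor that is kept through life and acts upstream of Sox6 and Satb1. The Dlx homeobox genes lie in back-to-back pairs and act in nearly all forebrain GABAergic lineages, while Mef2c and the coactivator Ppargc1a act later, as the cells mature. Thyroid hormone acts through nuclear receptors, among them TRalpha1, that bind DNA at pairs of a short half-site; hairless (Hr) and Klf9 are textbook targets. The question put to the data was whether the identity regulators held steady while hormone targets moved.

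To show the DNA at the starts of these genes, the 250 bases before the 5′-most RefSeq start (GRCm38.p6) are printed, 5′ to 3′ on the gene's strand, for 3 regulators that the counts measure, 1 that they do not, and the hormone target Klf9. Capitals, which occur only in the Dlx1 window, mark the receptor half-site AGGTCA or, on the other strand, TGACCT. The windows are chr2:36105409-36105658 on the minus strand for Lhx6, chr13:83503784-83504033 on the plus strand for Mef2c, chr5:51567726-51567975 on the minus strand for Ppargc1a, chr2:71529195-71529444 on the plus strand for Dlx1 and chr19:23140976-23141225 on the plus strand for Klf9.
Lhx6: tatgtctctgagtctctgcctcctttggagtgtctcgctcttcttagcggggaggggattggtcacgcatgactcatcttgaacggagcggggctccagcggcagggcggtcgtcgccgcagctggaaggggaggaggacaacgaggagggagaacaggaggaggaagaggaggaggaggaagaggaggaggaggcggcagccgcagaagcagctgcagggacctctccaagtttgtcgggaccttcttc
Mef2c: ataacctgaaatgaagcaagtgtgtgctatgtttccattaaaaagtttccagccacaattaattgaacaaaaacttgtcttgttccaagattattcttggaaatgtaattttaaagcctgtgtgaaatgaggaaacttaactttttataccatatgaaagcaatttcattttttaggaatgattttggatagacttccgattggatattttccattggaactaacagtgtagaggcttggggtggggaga
Ppargc1a: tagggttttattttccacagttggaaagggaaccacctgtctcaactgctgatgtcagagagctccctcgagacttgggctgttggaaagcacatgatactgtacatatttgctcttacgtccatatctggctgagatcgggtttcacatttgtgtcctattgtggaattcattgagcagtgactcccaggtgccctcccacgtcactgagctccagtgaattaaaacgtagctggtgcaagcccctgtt
Dlx1: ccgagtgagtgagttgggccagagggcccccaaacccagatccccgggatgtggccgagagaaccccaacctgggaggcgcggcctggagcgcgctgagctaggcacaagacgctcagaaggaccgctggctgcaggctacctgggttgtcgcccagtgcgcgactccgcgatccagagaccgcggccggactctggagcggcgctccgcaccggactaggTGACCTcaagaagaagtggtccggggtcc
Klf9: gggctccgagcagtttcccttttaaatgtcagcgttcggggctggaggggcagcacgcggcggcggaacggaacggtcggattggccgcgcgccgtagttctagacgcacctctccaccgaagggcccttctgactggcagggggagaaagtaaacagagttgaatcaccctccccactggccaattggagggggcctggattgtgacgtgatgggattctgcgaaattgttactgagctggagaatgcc
The half-site occurred in the Dlx1 window, 29 bases before the RefSeq start, which lies inside the longer gene body that GENCODE gives Dlx1, and in none of the windows of Lhx6, Mef2c, Ppargc1a, Klf9, Sox6, Satb1 and Nkx2-1. Of the 32851 such windows in the mouse table, 4607 (14%) held it. A match or its absence describes the letters of these windows only.

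Total counts ran from 12957838 to 19141683 in the PTU_TH and PTU libraries and from 22333742 to 32571175 in the Mut and Ctrl libraries. The tables of these pairs of groups were made with different gene lists, so the comparison of PTU_TH with PTU and that of Mut with Ctrl each stay within 1 set of tables. Levels below are CPM, read counts scaled to a common library size, with TMM factors over all 15 libraries. The sorted nuclei carried parvalbumin neuron markers in every library, with Pvalb at 67.2 to 150 CPM and Gad1, the GABA-synthesizing enzyme, at 1028 to 1753 CPM. Most markers of other cells were lower, with Slc17a7 of excitatory neurons at 17.2 to 52.6 CPM, Sst of somatostatin interneurons at 2.68 to 20.99 CPM and Aqp4 of astrocytes at 0.097 to 3.37 CPM, but Mbp of oligodendrocytes, at 37.6 to 89.3 CPM, overlapped Pvalb. Slc32a1, also on the list of parvalbumin neuron markers, lay at 27.5 to 66.7 CPM and overlapped both Slc17a7 and Mbp. Gad2, at 221.9 to 330.5 CPM, and Erbb4, at 1171 to 5374 CPM, did not overlap them. Libraries stood apart in another way: 8 held counts from Y-linked genes at 50 CPM or more in sum (PTU_TH 3 and 4, PTU 6 and 7, Mut 1, 2 and 3, Ctrl 2), and among PTU_TH and PTU libraries those 4 gave 24.9% to 28.4% of their counts to genes longer than 100 kb, against 34.1% to 40.7% in the 3 without. In pooled RNA of this kind, fewer nuclei expressing a gene and less RNA per nucleus cannot be told apart.

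Dlx1 and Dlx6 had 0 counts in all 15 libraries, and these zeros give no level for either gene. Dlx1 (chr2:71528113-71533981, plus strand, GRCm38) lies wholly inside the body of the antisense gene Dlx1as, and Dlx6 (chr6:6863334-6868568, plus strand) wholly inside Dlx6os1, with Dlx6os2 overlapping it too, although only 6.21% and 4.38% of their exon bases are shared. Among protein-coding genes whose whole body lies inside other genes, 1131 of 1231 (91.9%) were at 0 in all 15 libraries, against 144 of 7551 (1.91%) of genes with up to 50% of the body shared and 2293 of 11366 (20.2%) of genes with none shared. The share was as high, 768 of 822 (93.4%), among wholly enclosed genes with under 10% of their exon bases shared. How reads in overlapping genes were counted is not given in the sources used here. Their antisense neighbours did have counts. Dlx1as had 21.6, 26.1, 20.6 and 22.9 CPM in PTU_TH, 25.6, 31.6 and 21.2 CPM in PTU, 29.8, 31.8, 30.8 and 46.5 CPM in Mut, and 27.3, 33.0, 71.1 and 46.7 CPM in Ctrl libraries. Dlx6os1 had 99.9, 107.1, 79.8 and 74.7 CPM in PTU_TH, 127.8, 89.0, 101.3 CPM in PTU, 153.8, 84.1, 136.5 and 170.5 CPM in Mut, and 137.5, 131.3, 144.7 and 137.6 CPM in Ctrl libraries. Dlx2, the neighbour of Dlx1 with a body of its own, was named after its values were seen: it had 20.2, 19.7, 24.3 and 28.9 CPM in PTU_TH, 18.3, 25.1 and 25.3 CPM in PTU, 19.6, 20.4, 17.6 and 17.6 CPM in Mut, and 20.4, 29.8, 18.2 and 20.5 CPM in Ctrl libraries, with overlap in each comparison. Dlx6os1 names a pair of gene identifiers in the annotation. Without stated strand counting, reads of a Dlx gene and of its antisense partner cannot be told apart where they overlap.

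**Figure D1:**
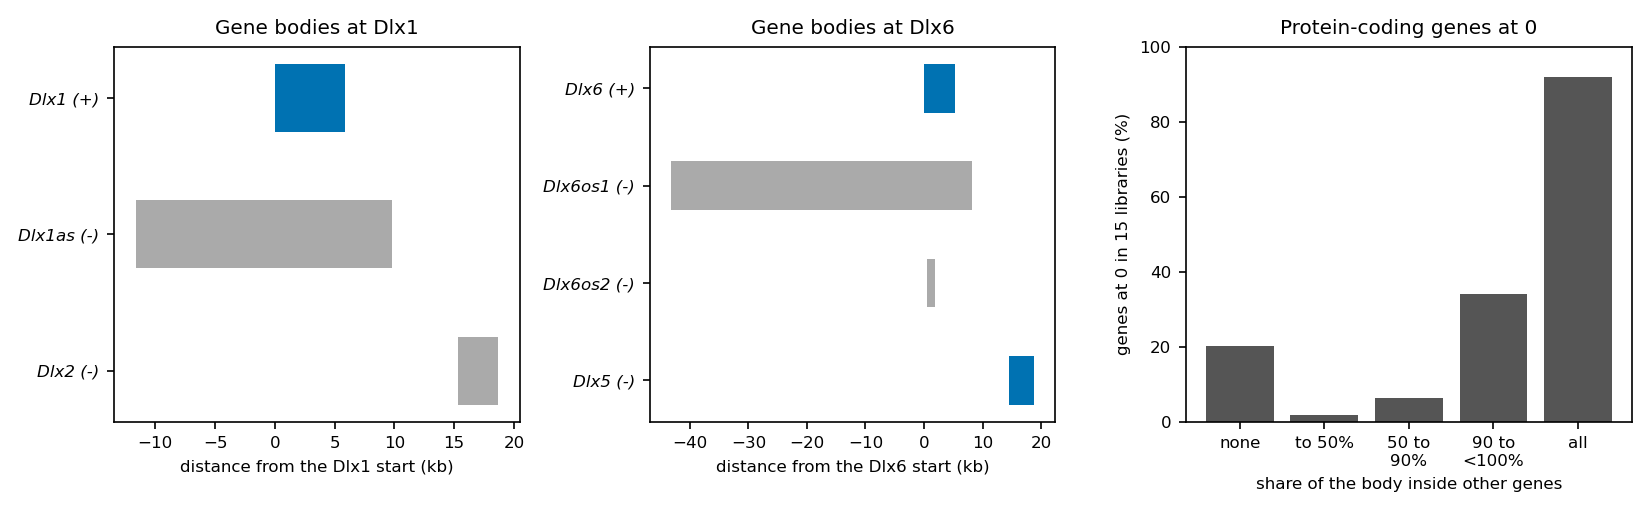
Left and middle, gene bodies around Dlx1 and Dlx6 with their strands, to scale by distance from the gene's start in kb (blue, regulators of the 9; grey, neighbours); right, percent of protein-coding genes at 0 in all 15 libraries (bars, y axis) by the share of the gene body inside other genes (x axis). Dlx1 and Dlx6 lie inside antisense genes, and the bar for wholly enclosed genes reaches 91.9%.

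Nkx2-1 (chr12:56531958-56536908, minus strand), which in the mouse is switched off in interneurons bound for the cortex, had 4 counts in PTU 5, 2 in Ctrl 1, 1 in Mut 1, 1 in Mut 4 and 0 in the other libraries. At this depth 3 counts amount to 0.0921 to 0.232 CPM, so no group difference could be detected, and the gene was not tested. Part of its body (31.6%) is shared with Gm26973. The 6 remaining regulators passed the filter on low counts in every comparison.

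Lhx6 (chr2:36081953-36105408, minus strand) had 162.2, 132.1, 160.4 and 161.3 CPM in PTU_TH libraries and 142.3, 162.8 and 158.6 CPM in PTU libraries. It had 121.7, 96.8, 150.5 and 129.9 CPM in Mut libraries and 92.2, 127.9, 141.5 and 140.6 CPM in Ctrl libraries. The hormone-injected and PTU libraries overlapped, as did the Mut and Ctrl libraries. Every PTU library was above every Ctrl library, but narrowly, with the lowest PTU library at 142.3 CPM and the highest Ctrl library at 141.5 CPM. PTU against Ctrl crosses the sets of tables, and there 27.6% of all genes had groups that did not overlap. Sox6 (chr7:115470872-116038796, minus strand), which acts downstream of Lhx6 in positioning and maturation, had 520.6, 697.7, 380.1 and 284.3 CPM in PTU_TH libraries and 630.5, 317.6 and 315.9 CPM in PTU libraries. Its levels were 633.8, 407.5, 595.8 and 586.7 CPM in Mut libraries and 724.5, 432.5, 497.2 and 480.7 CPM in Ctrl libraries. Within each of the PTU_TH and PTU groups Sox6 split widely, with PTU_TH 1 and 2 and PTU 5 high and the others low.

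Satb1 (chr17:51736187-51833290, minus strand), a chromatin organizer needed for the maturation of interneurons from this origin, was the most even of the 6. It had 286.4, 283.5, 260.4 and 232.8 CPM in PTU_TH, 281.6, 250.9 and 264.8 CPM in PTU, 305.6, 275.4, 335.5 and 349.7 CPM in Mut, and 315.0, 287.3, 295.2 and 301.0 CPM in Ctrl libraries. The Mut libraries spread on both sides of the Ctrl libraries. Every PTU_TH and PTU library was below every Ctrl library, but narrowly for PTU_TH. The highest PTU_TH library was at 286.4 CPM, the highest PTU library at 281.6 CPM and the lowest Ctrl library at 287.3 CPM. Groups did not overlap for 23.2% of all genes in PTU_TH against Ctrl and 27.6% in PTU against Ctrl. Both comparisons cross the sets of tables, so the set and the group cannot be told apart. Dlx5 (chr6:6877805-6882085, minus strand), the only Dlx member with a measured level, had 11.3, 10.9, 12.7 and 12.9 CPM in PTU_TH, 11.2, 16.3 and 17.6 CPM in PTU, 13.6, 25.0, 17.2 and 21.1 CPM in Mut, and 12.9, 17.5, 16.4 and 17.5 CPM in Ctrl libraries. All 4 PTU_TH libraries were below all 4 Ctrl libraries, but narrowly, with PTU_TH 4 at 12.85 CPM and Ctrl 1 at 12.95 CPM. PTU_TH overlapped PTU, and both PTU and Mut overlapped Ctrl.

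Mef2c (chr13:83504034-83667080, plus strand), an activity-regulated MADS-box factor, had 1056, 1155, 871.5 and 696.2 CPM in PTU_TH libraries and 1110, 783.1 and 860.5 CPM in PTU libraries. It had 1393, 1065, 1316 and 1304 CPM in Mut libraries and 1333, 867.6, 1126 and 1032 CPM in Ctrl libraries. Ppargc1a (chr5:51454250-51567726, minus strand), the coactivator of mitochondrial genes that is needed for full Pvalb expression in these cells, had 308.5, 349.8, 248.2 and 235.3 CPM in PTU_TH, 315.7, 222.2 and 232.5 CPM in PTU, 313.0, 238.8, 333.9 and 336.4 CPM in Mut, and 351.5, 245.4, 322.2 and 286.6 CPM in Ctrl libraries. Both genes overlapped between PTU_TH and PTU and between Mut and Ctrl, and both were high in PTU_TH 1 and 2 and PTU 5.

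**Figure D2:**
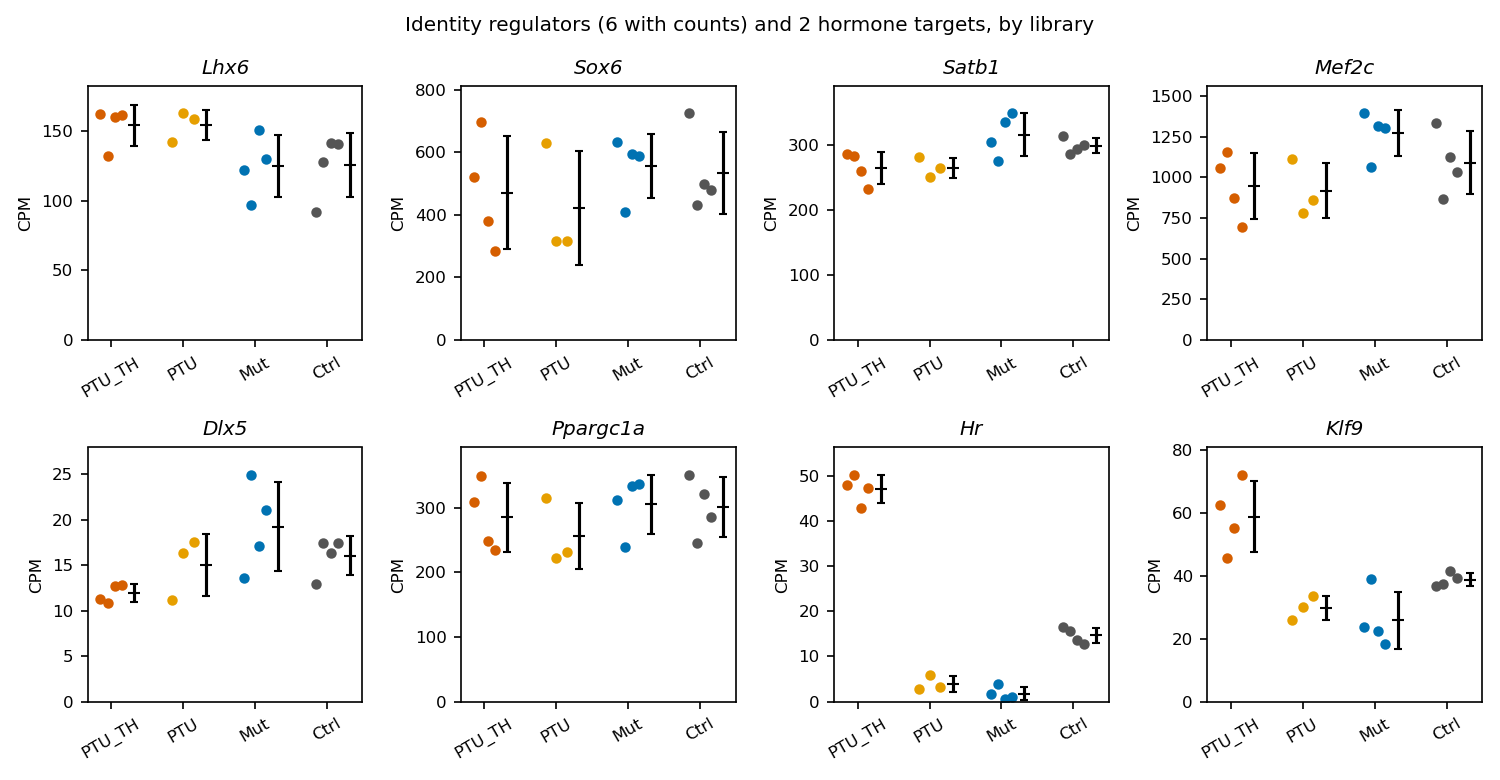
Level of the 6 measured regulators, Hr and Klf9 (y axis, TMM-scaled CPM from 0) by group (x axis), with 1 point a mouse, a tick for the group mean and whiskers for 1 SD. Hr sits at 42.9 to 50.2 CPM in PTU_TH libraries and below 6 CPM in PTU and Mut libraries, while each regulator stays within 2.55-fold across all 15 libraries.

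Ranked by CPM per kb of exon in Ctrl libraries, Mef2c came first at 69.3 ± 12.4 (SD, n = 4), followed by Ppargc1a at 45.7 ± 6.95 and Sox6 at 36.0 ± 8.77. Lhx6 at 26.1 ± 4.8, Satb1 at 15.75 ± 0.614 and Dlx5 at 7.10 ± 0.947 came lower. Of neighbours in this order, Ppargc1a and Sox6, and Sox6 and Lhx6, differed by less than the sum of their SDs, and the others by more. Nuclear RNA includes introns, and per kb of gene body not shared with another gene the order changed. On that scale, chosen after the values were seen, Mef2c led at 6.68 ± 1.19 CPM per kb, then Lhx6 at 5.38 ± 0.990, Satb1 at 3.78 ± 0.148, Dlx5 at 3.75 ± 0.5, Ppargc1a at 2.88 ± 0.438 and Sox6 at 0.973 ± 0.237. There Mef2c and Lhx6, Satb1 and Dlx5, and Dlx5 and Ppargc1a differed by less than the sum of their SDs.

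With hormone injection, 24 h before dissection, 5 of 20 tested genes on a list of hormone targets passed the test, all higher. None of the identity regulators passed it. In PTU_TH against PTU libraries, 0 of the 6 regulators were called at an adjusted p under 0.05 by the quasi-likelihood F test of edgeR, with Benjamini-Hochberg correction over 15288 genes, where 43 genes (0.281%) were called, 39 higher and 4 lower. DESeq2 also called 0 of the 6. With so few of all genes called, 0 of 6 does not set the regulators apart from other genes. None of the 6 had an unadjusted p under 0.05, against 7.37% of all genes, and none had groups that did not overlap, against 8.59% of all genes. Lhx6 averaged 154 ± 14.6 CPM in PTU_TH and 154.6 ± 10.9 CPM in PTU libraries (SD, n = 4 and 3), a log2 fold change of 0.0065 ± 0.11 (SE) with a 95% interval of -0.24 to 0.26. Satb1 averaged 265.8 ± 24.9 CPM in PTU_TH and 265.8 ± 15.4 CPM in PTU libraries, a log2 fold change of 0.011 ± 0.13 with an interval of -0.29 to 0.31. The intervals of these and Ppargc1a show which changes the data still allow: for Ppargc1a, at 0.16 ± 0.20, the interval ran from -0.30 to 0.62. Mef2c changed by 0.051 ± 0.23, with an interval of -0.47 to 0.57, and Dlx5 by -0.32 ± 0.17, with an interval of -0.72 to 0.079. Sox6 was the least precise, at 0.16 ± 0.36 with an interval of -0.66 to 0.99 that nearly reaches a doubling, and without PTU 5 it gave 0.61 (edgeR adjusted p = 0.455) and Ppargc1a 0.36. All 6 intervals lay inside a 2-fold change either way, as did those of 73.4% of all genes tested. The count was 5 of 6 with another library scaling (RLE), with no filter on low counts, and without PTU_TH 1, PTU_TH 3, PTU_TH 4 or PTU 5. As fitted on all 7 libraries, 3 of 6 lay inside 1.5-fold, as did 44% of all genes. These shares of all genes, and those given below, were not matched for expression level.

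Some hormone targets gave the contrast. Hr, a nuclear corepressor, had 47.9, 50.2, 42.9 and 47.3 CPM in PTU_TH libraries, against 2.68, 5.87 and 3.17 CPM in PTU libraries, and rose by 3.61 ± 0.25 on the log2 scale (edgeR adjusted p = 0.00251). Of the 20 tested genes on a list of hormone targets, 5 rose and 0 fell, with a median log2 fold change of 0.46, against 0.031 over the 6 regulators and -0.0029 over all genes. The other 4 that rose were Sema7a, an axon guidance protein (83.2 ± 9.50 CPM in PTU_TH and 35.1 ± 3.42 CPM in PTU, edgeR adjusted p = 0.00689), Flywch2, the clock output factor Dbp and the peroxisomal transporter Abcd2. Klf9, a Krüppel-like factor, had 62.4, 45.6, 55.1 and 72.1 CPM in PTU_TH and 25.9, 29.9 and 33.5 CPM in PTU libraries, with no overlap, and its log2 fold change of 0.99 ± 0.16 missed the threshold (edgeR adjusted p = 0.0556). The list was drawn up with earlier results of these libraries known, so its direction is no independent evidence.

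Among 34 tested genes of a wider list of interneuron transcription factors, 0 were called in PTU_TH against PTU libraries, and none had an unadjusted p under 0.05. Among 25 tested partners and targets of Ppargc1a, 0 were called, and 24 had a positive and 1 a negative log2 fold change. Their median was 0.17, against -0.0029 over all genes. That list holds Pvalb, Syt2, Nefh and Cplx1, which are also markers of parvalbumin neurons, and Nefh is also on the list of hormone targets. In the same comparison most lists of markers of other cells leaned to negative values. These were negative for 11 of 14 excitatory, 10 of 12 oligodendrocyte, 9 of 10 astrocyte and 7 of 10 other interneuron markers tested. Microglial and endothelial markers were split, with 6 positive and 6 negative. None of these markers were called, and their part in the values of the Ppargc1a list was not tested. Pvalb itself had 150, 139.6, 119 and 136.5 CPM in PTU_TH and 103.1, 90.3 and 105.1 CPM in PTU libraries. These Pvalb values did not overlap, and the log2 fold change of 0.47 ± 0.12 did not pass (edgeR adjusted p = 0.277).

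**Figure D3:**
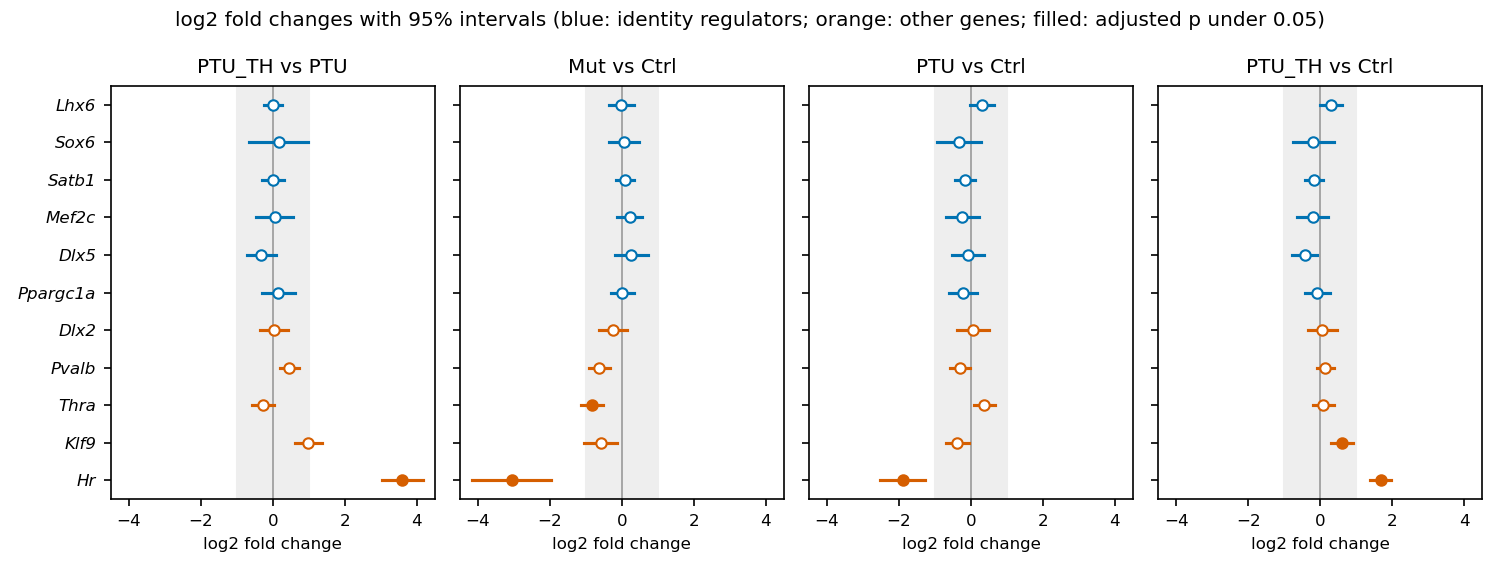
Log2 fold changes (x axis) of the 6 measured regulators in blue and of Dlx2, Pvalb, Thra, Klf9 and Hr in orange, as points with 95% intervals from edgeR's quasi-likelihood fit, 1 panel a comparison; filled points have an adjusted p under 0.05 and the grey band spans a 2-fold change either way. Every interval of the 6 regulators lies inside the band, while Hr lies far from it in PTU_TH against PTU (3.61) and Mut against Ctrl (-3.06).

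For the mutant, Thra itself was looked at first, with counts per gene that do not separate its alleles. Thra had 30.6, 28.4, 39.4 and 33.1 CPM in Mut libraries, against 62.2, 58.7, 49.7 and 64.2 CPM in Ctrl libraries, and fell by 0.84 ± 0.14 on the log2 scale (edgeR adjusted p = 0.0280). None of the 6 regulators were called in Mut against Ctrl libraries, where 59 of 16949 genes (0.348%) were, 21 higher and 38 lower. DESeq2 called 0 of the 6 as well. None had an unadjusted p under 0.05 (8.74% of all genes did), and none had groups that did not overlap (6.12% of all genes did). Lhx6 averaged 124.7 ± 22.2 CPM in Mut and 125.5 ± 23.1 CPM in Ctrl libraries (SD, n = 4 each), a log2 fold change of -0.0095 ± 0.16 with a 95% interval of -0.37 to 0.35. Ppargc1a averaged 305.5 ± 45.7 CPM in Mut and 301.4 ± 45.8 CPM in Ctrl libraries, at 0.018 ± 0.15, with an interval of -0.31 to 0.35. Satb1 differed by 0.079 ± 0.11 and Sox6 by 0.057 ± 0.19 on the log2 scale. The largest values were those of Mef2c, at 1270 ± 142 CPM in Mut and 1090 ± 194.2 CPM in Ctrl libraries (0.22 ± 0.16, interval -0.13 to 0.57), and Dlx5, at 19.2 ± 4.89 CPM in Mut and 16.1 ± 2.14 CPM in Ctrl libraries (0.26 ± 0.21, interval -0.20 to 0.72). All 6 intervals lay inside a 2-fold change, as did those of 68.1% of all genes, and 5 of 6 lay inside 1.5-fold, as did 38.7% of all genes.

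In the same libraries Hr had 1.72, 3.92, 0.485 and 0.927 CPM in Mut, against 16.4, 15.7, 13.7 and 12.8 CPM in Ctrl, and fell by 3.06 ± 0.51 on the log2 scale (edgeR adjusted p = 0.0259). Of 21 tested hormone targets, 0 rose and 3 fell, the others being the laminin receptor subunit Itga7 (22.4 ± 1.41 CPM in Mut and 79.4 ± 9.14 CPM in Ctrl) and Sema7a (23.1 ± 6.18 CPM in Mut and 55.8 ± 8.62 CPM in Ctrl). The median over that list was -0.35, against 0.068 over the 6 regulators and 0.014 over all genes. As the list was drawn up with earlier results known, its direction here and in the comparisons below is no independent evidence. Klf9 had 23.7, 38.8, 22.4 and 18.3 CPM in Mut and 36.8, 37.5, 41.5 and 39.4 CPM in Ctrl libraries, with Mut 2 among the Ctrl values, and was not called (-0.59 ± 0.21, edgeR adjusted p = 0.395). Of the wider interneuron factors 0 of 35 were called, among them Nfib, a nuclear factor I protein, at -0.64 on the log2 scale. Of the Ppargc1a partners and targets 0 of 25 were called. Of these 25, 6 had an edgeR unadjusted p under 0.05 (8.74% of all genes). In 4 of 25 the groups did not overlap (6.12% of all genes). Of 15 tested parvalbumin neuron markers, a list that shares genes with this one, 2 were called, 1 higher and 1 lower. Of these markers, 9 had an edgeR unadjusted p under 0.05 and 7 had groups that did not overlap. Pvalb had 67.2, 92.2, 70.3 and 89.3 CPM in Mut, against 118.7, 137.8, 121.2 and 115.7 CPM in Ctrl libraries. The Pvalb groups did not overlap, at -0.63 ± 0.13 on the log2 scale (edgeR adjusted p = 0.0780). The summed level of 16 markers of other interneurons was 242.8 to 340.2 CPM in Mut and 193.3 to 214.9 CPM in Ctrl libraries, and its part in these values was not tested.

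PTU against Ctrl and PTU_TH against Ctrl cross the sets of tables, so the set and the group cannot be told apart, and both comparisons share the Ctrl libraries. In PTU against Ctrl 2804 of 16496 genes (17%) were called, 722 higher and 2082 lower, and 0 of the 6 regulators were, nor did any have an unadjusted p under 0.05, which 28.8% of all genes had. Lhx6 had the smallest p-value of the 6, at 0.31 ± 0.16 with an interval of -0.031 to 0.65 (edgeR adjusted p = 0.218). The others had negative values, in order of size Sox6 (-0.33 ± 0.27), Mef2c (-0.24 ± 0.21), Ppargc1a (-0.22 ± 0.18), Satb1 (-0.16 ± 0.13) and Dlx5 (-0.086 ± 0.21). Without PTU 5, Sox6 was called, at -0.76 (edgeR adjusted p = 0.0251). Lhx6 and Satb1, 2 of 6, had groups that did not overlap, where 27.6% of all genes did not. In PTU_TH against Ctrl 2814 of 15814 genes (17.8%) were called, 746 higher and 2068 lower, and again 0 of 6. Dlx5 was the 1 regulator of 6 with an unadjusted p under 0.05, against 30% of all genes. Dlx5, at 11.9 ± 1.00 CPM in PTU_TH and 16.1 ± 2.14 CPM in Ctrl libraries, came closest, at -0.43 ± 0.16 with an interval of -0.78 to -0.079 (edgeR adjusted p = 0.0899), and it was called by DESeq2 (adjusted p = 0.0492, log2 fold change -0.42) and without Ctrl 1 (edgeR adjusted p = 0.0347, -0.52). Dlx5 and Satb1 had groups that did not overlap, against 23.2% of all genes, and Lhx6 stood at 0.30 ± 0.14.

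All 6 intervals lay inside a 2-fold change in both crossing comparisons, against 58.7% of all genes in PTU against Ctrl and 65.2% in PTU_TH against Ctrl. In PTU against Ctrl the count was 5 of 6 without PTU 5, Ctrl 2, Ctrl 3 or Ctrl 4. With all libraries 2 of 6 lay inside 1.5-fold in each, against 27.2% of all genes in PTU against Ctrl and 36.4% in PTU_TH against Ctrl. Near Dlx5, and on the same strand, Dlx6os1, which is antisense to Dlx6, fell by 0.61 ± 0.13 in PTU_TH against Ctrl (edgeR adjusted p = 0.00402), and Dlx1as, on another chromosome, fell by 0.96 ± 0.25 (edgeR adjusted p = 0.0166). In PTU against Ctrl the same pair gave -0.37 (edgeR adjusted p = 0.105) and -0.76 (edgeR adjusted p = 0.107). Both antisense genes were added after their values were seen, and here too the set of tables and the group cannot be told apart. Dlx1as alone ran from 27.3 to 71.1 CPM among Ctrl libraries. Hr fell by 1.90 ± 0.28 in PTU against Ctrl (edgeR adjusted p = 0.00059), with 4 of 21 hormone targets lower and 2 higher, Mbp among them. Mbp is also an oligodendrocyte marker, and all 12 markers of that lineage had positive values in PTU against Ctrl (median 0.45, 1 called; summed level 139.7 to 220.1 CPM in PTU and 118.8 to 147.1 CPM in Ctrl libraries), whose part in the count was not tested. In PTU_TH against Ctrl Hr rose by 1.69 ± 0.13 (edgeR adjusted p = 1.39e-06), with 7 of 21 higher and 1 lower, and Klf9 rose by 0.60 ± 0.14 (edgeR adjusted p = 0.00859). Of the wider interneuron factors only Sox4, a factor of immature neurons, was called, rising by 0.78 ± 0.21 in PTU against Ctrl (edgeR adjusted p = 0.0263); 0 of 34 were called in PTU_TH against Ctrl. Of the Ppargc1a list, cytochrome c (Cycs) fell by 1.47 in PTU against Ctrl and by 1.29 in PTU_TH against Ctrl on the log2 scale, and the mitochondrial superoxide dismutase Sod2 rose by 0.78 and 0.93.

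The regulators varied among mice of 1 group more or less than a typical gene, depending on the gene. The pooled within-group coefficient of variation of CPM was 7.98% for Satb1, lower than in all but 5.05% of 10973 genes of at least 5 CPM, whose median was 16.8%. It was 14.6% for Lhx6, 17.1% for Ppargc1a, 17.6% for Mef2c, 18.3% for Dlx5 and 31.4% for Sox6, which 89.9% of genes stayed under. Over all 15 libraries the highest level was 1.5 times the lowest for Satb1 and 2.55 times for Sox6.

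Among PTU_TH and PTU mice that spread ran along a split of the libraries that crosses the treatment. In libraries with Y-linked counts Sox6 lay at 284.3 to 380.1 CPM, against 520.6 to 697.7 CPM in libraries without, and neither Mef2c (696.2 to 871.5 with, 1056 to 1155 without) nor Ppargc1a (222.2 to 248.2 with, 308.5 to 349.8 without) nor Satb1 (232.8 to 264.8 with, 281.6 to 286.4 without) overlapped. Dlx5, in a gene of 4.28 kb, went the other way, at 12.7 to 17.6 CPM with and 10.9 to 11.3 CPM without, and Lhx6, in a gene of 23.5 kb, overlapped at 158.6 to 162.8 and 132.1 to 162.2 CPM. Sox6 spans 567.9 kb, Mef2c 163 kb, Ppargc1a 113.5 kb and Satb1 97.1 kb. The share of counts in genes over 100 kb moved with the same split, so Y-linked counts and long-gene share cannot be told apart there. Among Mut and Ctrl libraries all 6 ranges overlapped, with Sox6 at 407.5 to 633.8 CPM with and 480.7 to 724.5 CPM without Y-linked counts. Among libraries with Y-linked counts (PTU_TH 3 and 4 against PTU 6 and 7), the log2 fold change was 0.081 ± 0.15 (SE) for Sox6, 0.016 ± 0.12 for Lhx6, -0.051 ± 0.13 for Satb1, -0.055 ± 0.15 for Mef2c, 0.10 ± 0.13 for Ppargc1a and -0.39 ± 0.20 for Dlx5. Among those without, PTU 5 is the lone PTU library and is assumed to vary like the PTU_TH pair, and the values were -0.061 ± 0.34 for Sox6 and -0.028 ± 0.31 for Dlx5. With the long-gene share as a covariate the SE of Sox6 was 0.064 and its change 0.042.

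**Figure D4:**
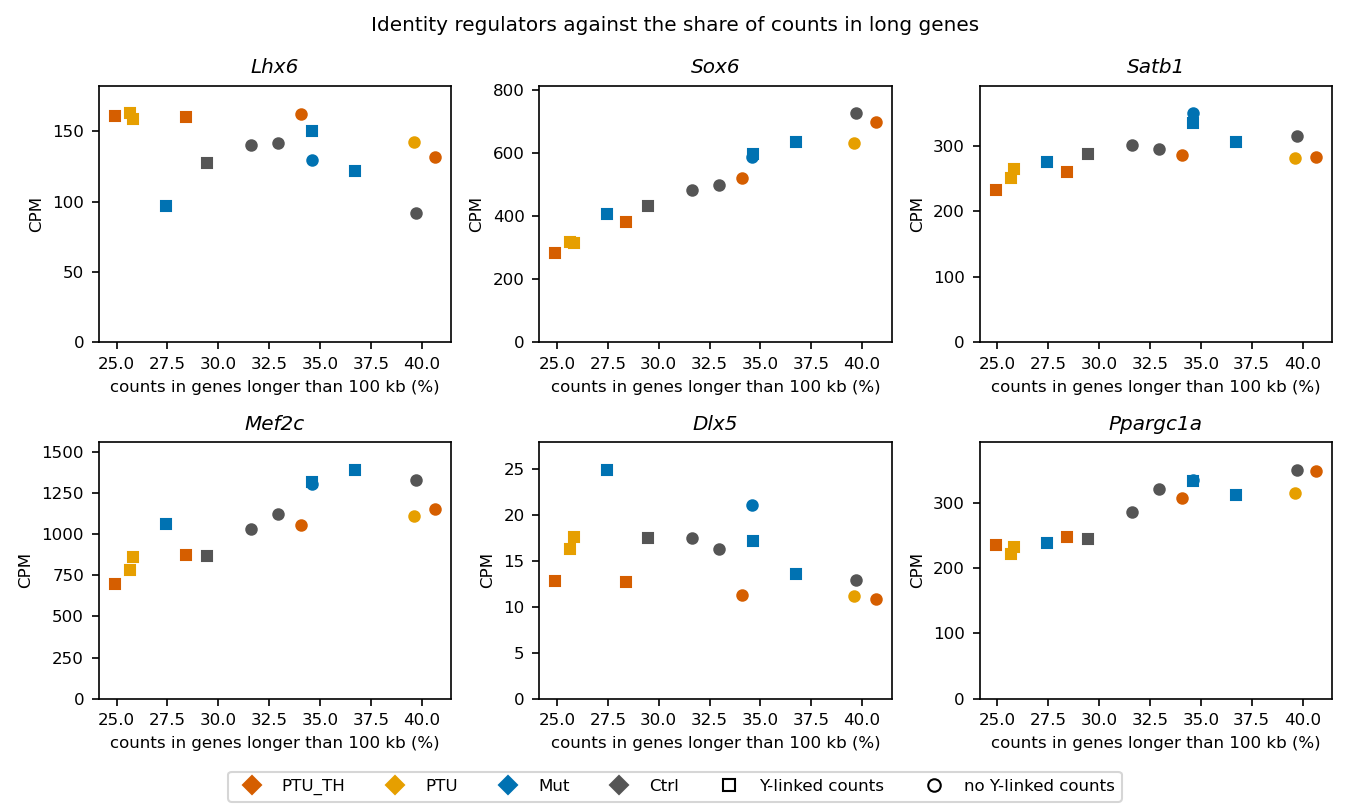
Level of each measured regulator (y axis, TMM-scaled CPM) against the percent of a library's counts that fall in genes longer than 100 kb (x axis), 1 point a mouse, marked by group and by Y-linked counts. Sox6, the longest gene, spans 284.3 to 724.5 CPM along that axis, and Lhx6 and Dlx5, the shorter genes, do not climb with it.

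Across the 15 libraries, deviations of log2 CPM from the group means tied the long regulators together: Pearson's r was 0.952 between Sox6 and Mef2c, 0.942 between Mef2c and Ppargc1a and 0.931 between Sox6 and Ppargc1a. Satb1 followed them at 0.786 to 0.849, and Dlx5 ran against all 4, at -0.464 to -0.782. Lhx6 went with none of them, at -0.332 to 0.161. These are descriptions over libraries that share depth and the long-gene split. Of 10168 genes compared, those most like Sox6 were Erc2 (856.1 kb, r = 0.994), Celf2 (969.9 kb, 0.994) and Dlg2 (1973 kb, 0.993), which are longer still, and those most like Mef2c were Amph (0.985), Ppp2r3a (0.984) and Bach2 (0.983). Ppargc1a was followed most closely by Pcgf5 (0.989), Adra1a (0.98) and Apba1 (0.974), and Satb1 by Mid1 (0.934), Tmod3 (0.933) and Ppp3cc (0.928). The genes most like Dlx5 included Coa7 (13.4 kb, 0.937) and Vamp1 (30.4 kb, 0.932), and those most like Lhx6 were Pdcd2l (0.946), Atp7b (0.936) and 9430015G10Rik (0.932).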

How the data were processed

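The authors deposited 1 table of whole-number read counts per gene for each of 15 libraries of sorted nuclear RNA. Per the submitters' processing notes, Bowtie2 2.5.3 and HTSeq were used with mm10/GRCm38; the sources used here give no counting settings. Per the labels' protocols, cDNA was made with an ultralow-input kit and read single-end. Groups were compared with edgeR 4.0.16 in R 4.3.3 (TMM, filterByExpr at minimum count 10, quasi-likelihood F test with robust dispersion, Benjamini-Hochberg adjustment over all genes tested, adjusted p under 0.05), fitted on the libraries of the groups compared. An SE is the log2 fold change over the square root of F, and p-values measure the spread between mice. DESeq2 1.42.0 was an alternative, with other filters, covariates and left-out libraries. Printed CPM uses the 46380 shared symbols. Overlaps and gene lengths come from GENCODE M21 (GRCm38), and 250-base windows from RefSeq (GRCm38.p6); Dlx5, Dlx6 and Hr have no printed window. The scripts were tested on simulated data. Named genes were the 9 regulators, Hr, Klf9, Thra, Pvalb, the called genes of each list, up to 6 (or, with none called, the 2 of smallest p), and the 3 genes most like each regulator; some are not reported here, and Dlx1as and Dlx6os1 were added after their values were seen. The regulators and lists were chosen with earlier results of these data known.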

Additional observations from a re-analysis of the deposited data

Results flagged for a closer look

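In the PTU_TH group, Lhx6 of replicate 2 lay apart at 132.1 CPM, against 160.4 to 162.2 CPM in the other 3 libraries. Its distance from the nearest library took up most of the group's range. It was the only such case among 18 groups of 4 libraries examined, and chance marks about 1 in 20 such groups.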

How the results depend on the processing

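No alternative called any of the 6 regulators in PTU_TH against PTU or in Mut against Ctrl. In PTU against Ctrl, leaving out 1 library at a time gave 0 to 1 called: without PTU 5, Sox6 was called at a log2 fold change of -0.76 (edgeR adjusted p = 0.0251). In PTU_TH against Ctrl, Dlx5 was the 1 regulator called by DESeq2 (-0.42, adjusted p = 0.0492), with the long-gene share as covariate (1 called; -0.46, edgeR adjusted p = 0.0272) and without Ctrl 1 (-0.52, edgeR adjusted p = 0.0347; 0 to 1 over the left-out libraries). The cause was not tested. With a bound of 1.5-fold in place of 2-fold, 3 regulators lay inside it in PTU_TH against PTU, 5 in Mut against Ctrl, 2 in PTU against Ctrl and 2 in PTU_TH against Ctrl. In the Mut and Ctrl libraries with Y-linked counts alone, chosen after seeing the data, 3 lay inside 2-fold; Ctrl 2 is the lone Ctrl library there, assumed to vary like the Mut libraries. Inside 2-fold lay 5 of 6 in PTU_TH against PTU with RLE scaling or no filter, and 5 to 6 with 1 library left out there and in PTU against Ctrl. Without PTU 5, PTU_TH against PTU gave 0.61 for Sox6 and 0.36 for Ppargc1a.

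Counts of called genes over all genes moved far more. PTU_TH against PTU had 43 called, and 204 by DESeq2, 335 with Y-linked counts and 1011 with the long-gene share as covariate, 105 in libraries with Y-linked counts, 87 in those without (PTU 5 the lone PTU library), and 5 to 29 with 1 library left out, over 1.5 times fewer for each library except PTU_TH 4. Mut against Ctrl had 59, and 404 by DESeq2, 90 among genes of at least 1 CPM, 196 when all 4 groups shared the fit, 31 with Y-linked counts and 210 with the long-gene share as covariate, 0 in libraries with Y-linked counts (Ctrl 2 the lone Ctrl library), 1 in those without (Mut 4 the lone Mut library), and 11 to 103 with 1 library left out, over 1.5 times apart from 59 for each library except Ctrl 1, the most without Mut 2. PTU against Ctrl had 2804, and 2061 to 4283 with 1 library left out, the most without PTU 5. PTU_TH against Ctrl had 2814, 4536 with the long-gene share as covariate, and 2380 to 3270 with 1 library left out. Whether replicate numbers pair the mice could not be settled from these values. Correlations of same-numbered Mut and Ctrl libraries were 0.29, 0.382, -0.0798 and 0.198. Those of differently numbered Mut and Ctrl libraries ran from -0.315 to 0.247. With the number as a block 82 genes, 0 regulators among them, were called in Mut against Ctrl. In PTU_TH against Ctrl the block gave 2424 genes, 0 regulators among them. PTU shares no replicate numbers with PTU_TH or Ctrl. Depth limits Nkx2-1.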
